A study of Mus musculus with 4 samples.

Results

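The genes described here encode the proteasome and its regulators, measured in mesothelial cells of the mouse peritoneum. Members were taken by symbol: every gene named Psma, Psmb, Psmc, Psmd, Psme, Psmf or Psmg followed by a number, plus Pomp and Adrm1, without pseudogenes. The rule found 50 genes of the 48425 in the count table. The study has 1 group of 4 wild-type C57BL/6 mice, 10 weeks old, with no treatment named, and 1 RNA library per animal. Cells were released from the peritoneal lining with trypsin and sorted as CD45-negative, podoplanin-positive and Gpm6a-positive. RNA was depleted of ribosomal RNA and sequenced. Neither the sex of the animals nor a batch is given. With no second group, the comparisons are between genes within an animal and between the animals.

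The proteasome is the barrel-shaped protease that degrades proteins tagged with ubiquitin. Its 20S core is a stack of alpha and beta rings; certain beta subunits carry the active sites, and the 19S cap recognises, unfolds and feeds in the substrate. Interferons induce alternative catalytic subunits (Psmb8, Psmb9 and Psmb10) that replace the constitutive ones (Psmb5, Psmb6 and Psmb7) to form the immunoproteasome, and induce the activator pair Psme1 and Psme2, both tied to the supply of peptides for MHC class I.

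The libraries held 4569578, 4371817, 4554370 and 4090224 estimated counts for animals 1 to 4. Levels are counts-per-million of the column total (CPM), and 3 counts, the limit that a count of 0 allows, equal 0.657 to 0.733 CPM per library. All 13 mesothelial markers examined passed 10 CPM, among them Upk3b, Msln, Wt1, and Pdpn and Gpm6a, for which the cells were selected. Of 15 leukocyte markers only Csf1r passed 1 CPM; the list summed to 33.3 to 54.4 CPM per animal, and Itgam and Coro1a were at 0. The pan-leukocyte gene Ptprc, which encodes the CD45 that the sort selected against, stood at 3.05, 0, 0.187 and 0 CPM. Of 9 fibroblast markers 8 passed 1 CPM, with a sum of 14793 to 22298 CPM led by Dcn, and of 6 endothelial markers 2 passed, with Cdh5 and Emcn at 0. The part of other cells in the proteasome values was not tested, and in bulk RNA fewer cells of a type and less RNA per cell cannot be told apart.

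Nearly the whole proteasome was expressed. In a one-sided edgeR quasi-likelihood test of each gene's level, adjusted over all 48425 genes by Benjamini-Hochberg, 48 of 50 members lay above 1 CPM, against 24.7% of all genes. Above 10 CPM there were 46 of 50, against 15.1% of all genes. The members together took 0.652%, 0.653%, 0.724% and 0.600% of all counts in animals 1 to 4. Their median level was 117 CPM, while the 13721 genes with a mean of at least 1 CPM had a median of 17.8 CPM, both without regard to gene length. The members that did not pass 1 CPM were the tissue-restricted core subunits Psma8, known from the testis, and Psmb11, known from the thymus. Psma8 had no count in any animal, which allows up to 0.171 CPM over the 4 libraries together. Psmb11 had 0.685, 0, 0.266 and 0 CPM in animals 1 to 4, from 3.13 and 1.21 estimated counts in animals 1 and 3. Psme4 (adjusted p = 0.371, edgeR) and Psmg1 (adjusted p = 1) passed 1 CPM but not 10 CPM.

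**Figure D1:**
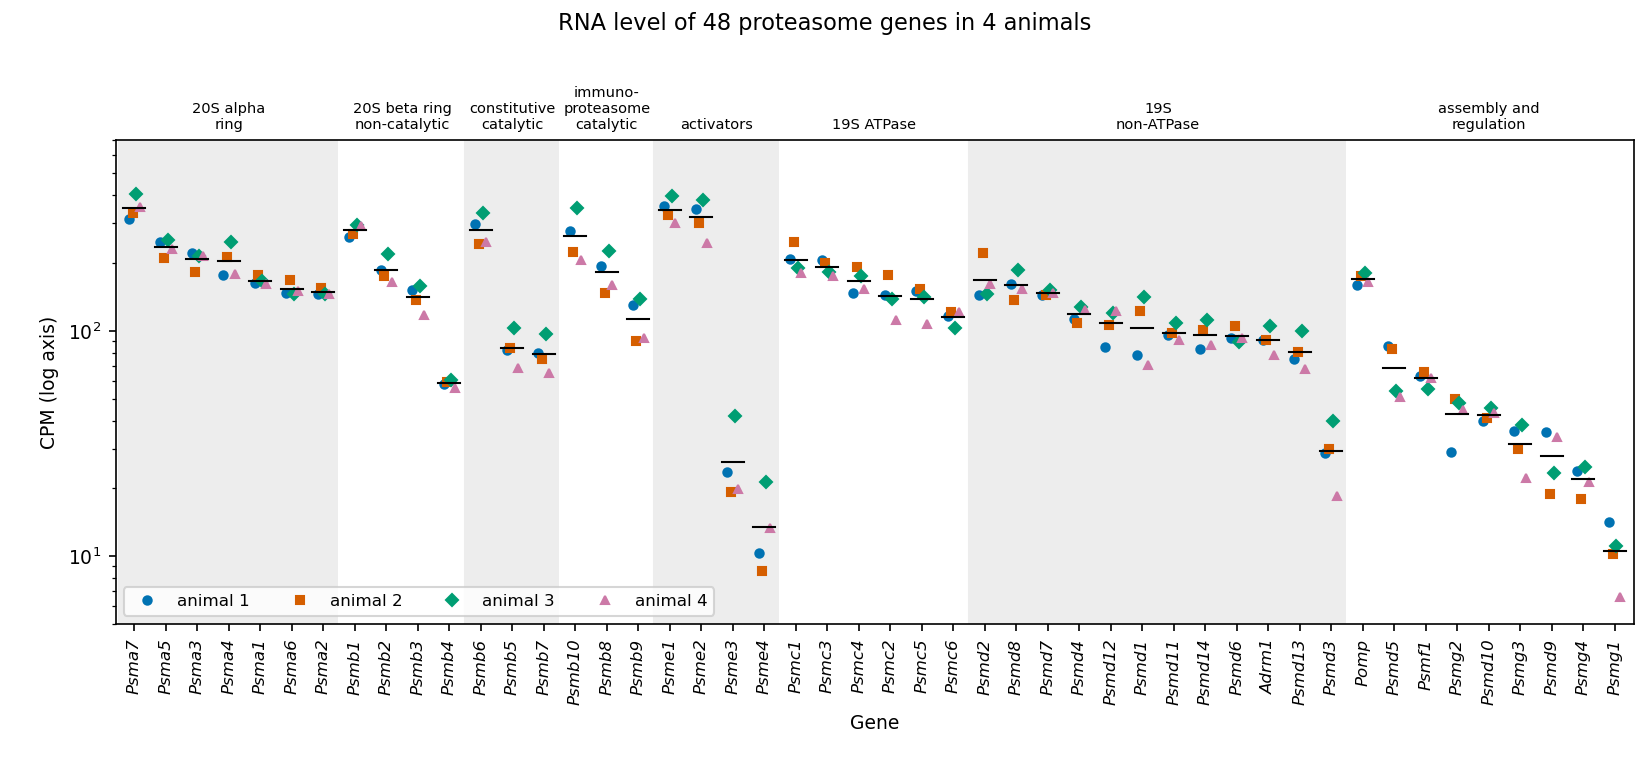
RNA level of the 48 members with a mean of at least 10 CPM, grouped by role (horizontal axis: gene; vertical axis: CPM on a log axis; points: 1 animal each; bar: mean of the 4 animals). The animals lie close together for most genes, such as Psmd7 (145 to 153 CPM), and further apart for Psme4 (8.59 to 21.4 CPM); heights of different genes also depend on their length.

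The catalytic subunits of both kinds were expressed in every animal. Among the constitutive genes, Psmb5 (chymotrypsin-like site; chr14:54614119-54618022, minus strand) had 81.9, 83.5, 103 and 68.3 CPM in animals 1 to 4. Psmb6 (caspase-like site; chr11:70525367-70527858, plus strand) had 297, 243, 334 and 247 CPM. Psmb7 (trypsin-like site; chr2:38588036-38644087, minus strand) had 80.1, 75.0, 97.1 and 65.1 CPM. All 3 constitutive genes were highest in animal 3, and Psmb5 and Psmb7 were lowest in animal 4. Among the immunoproteasome genes, Psmb8, which replaces Psmb5 (chr17:34197721-34201454, plus strand), had 194, 147, 227 and 159 CPM. Psmb9, which replaces Psmb6 (chr17:34181987-34187764, minus strand), had 130, 90.3, 139 and 92.5 CPM. Psmb10, which replaces Psmb7 (chr8:105935735-105938444, minus strand), had 278, 224, 350 and 207 CPM. Animals 1 and 3 were above animals 2 and 4 in all 3 immunoproteasome genes. The summed leukocyte markers also had animals 1 and 3 above animals 2 and 4, with 54.4, 33.3, 41.1 and 38.7 CPM. Csf1r, which made up most of that sum, did not have that order, with 33.2, 27.7, 39.4 and 37.7 CPM. Lyz2, Laptm5 and Cd79a, the next highest by mean, did not have it either, each with more in animal 2 than in animal 3. In animals 2 and 3, Lyz2 had 1.58 and 0.868 CPM, Laptm5 3.04 and 0, and Cd79a 0.442 and 0. Ptprc, next by mean after these, did have it, with 3.05, 0, 0.187 and 0 CPM, where the value of animal 3 lies under 3 counts. The part of leukocytes in the immunoproteasome values was not tested. Coordinates are from the GENCODE vM21 annotation of GRCm38.

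Levels of different genes were compared per kilobase of transcript (CPM per kb), with the median length of each gene's coding transcripts. Psmb5 then had 111 ± 18.9 CPM per kb (mean ± SD, n = 4), Psmb6 351 ± 54.0 and Psmb7 68.4 ± 11.6, with Psmb6 the highest of them in each animal. The immunoproteasome genes lay close together, with Psmb8 at 216 ± 43.1 CPM per kb, Psmb9 at 213 ± 47.4 and Psmb10 at 202 ± 49.0. The pairwise differences were taken within each animal on log2(CPM per kb + 0.5) and tested with limma, two-sided, with Benjamini-Hochberg adjustment over 14655 genes, those with at least 10 counts and a known length.

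Psmb10 was above its partner Psmb7 in 4 of 4 animals, by 1.54 log2 (SE 0.190; adjusted p = 7.79e-05, limma). Of the 14655 genes tested, 8.92% were called higher than Psmb7 and 83.8% lower. Psmb9 was below its partner Psmb6 in 4 of 4 animals, by a log2 difference of -0.73 (SE 0.186; adjusted p = 0.00538, limma). Psmb6 is high among the genes tested, of which 1.65% were called higher than it and 96.3% lower. Psmb8 was above Psmb5 in 4 of 4 animals by 0.96 log2 (SE 0.194; adjusted p = 0.00163, limma), where 5.82% of the genes tested were called higher than Psmb5 and 88.9% lower. In each limma fit the spread is moderated over all genes tested, and every difference shares the values of the partner gene. For Psmb9 minus Psmb6 the SE of 0.186 thus exceeds the SD of the 4 differences, 0.116. An exact sign-flip permutation test over the 4 animals gave p = 0.125 for each pair, the smallest it can give.

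The Psmb8 result rested on the transcript length used. The annotation of Psmb8 and Psmb9 includes short transcripts marked as incomplete at an end. With complete coding transcripts only, a length chosen after the data were seen, Psmb8 goes from 840 to 1628 bases and Psmb9 from 529 to 1352 bases, while the other 4 catalytic genes keep their length. On that scale Psmb8 had 112 ± 22.2 CPM per kb (n = 4), next to 111 ± 18.9 for Psmb5. The log2 difference was then 0.0045 (adjusted p = 0.982, limma), and it was 0.02 (adjusted p = 0.931) with the longest transcript. Psmb9 had 83.5 ± 18.5 CPM per kb, and its log2 difference from Psmb6 became -2.08. The Psmb10 difference stayed at 1.54 with complete transcripts and was 2.82 with the longest. Over all lengths the Psmb9 difference ran from -2.89 (longest) to -0.44 (shortest). The direction of the Psmb9 and Psmb10 differences was therefore the same under each length tried, and that of Psmb8 against Psmb5 had no call under the 2 longer lengths.

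**Figure D2:**
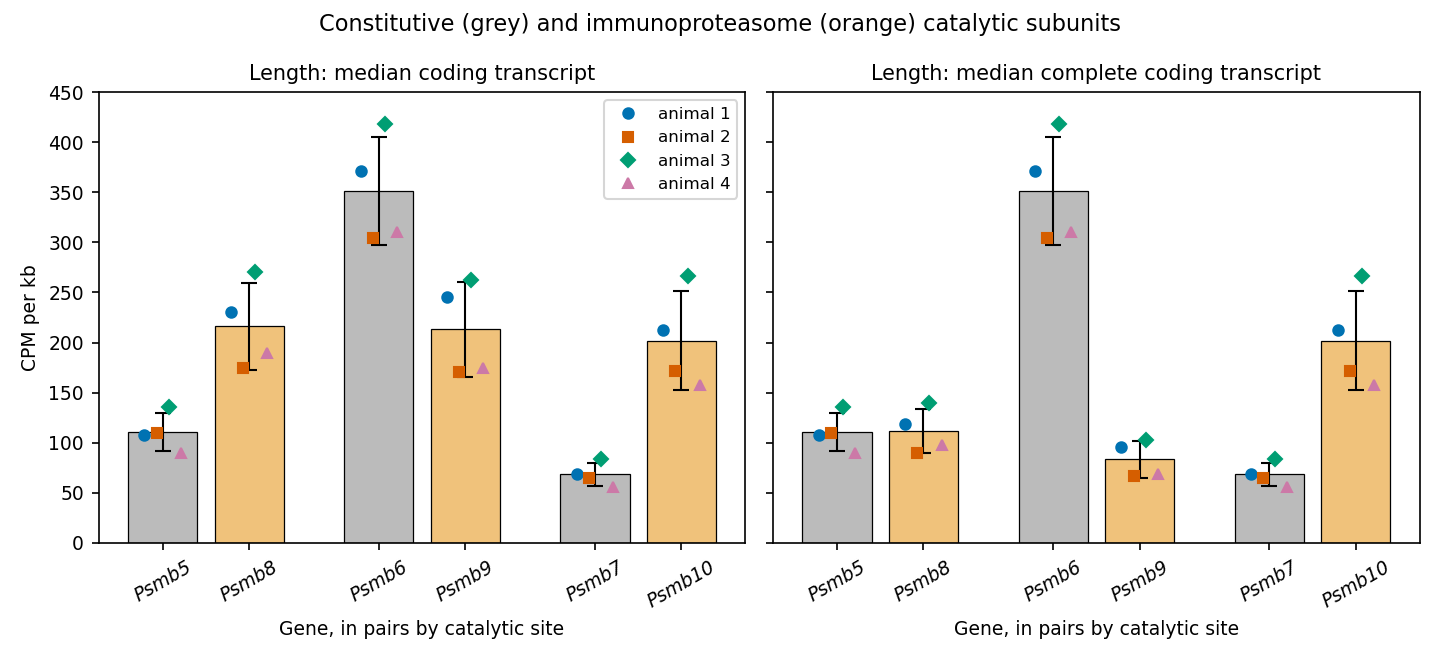
Levels of the constitutive (grey) and immunoproteasome (orange) catalytic genes in CPM per kb, in pairs by catalytic site, with the length from all coding transcripts (left) and from complete ones (right); bars show the mean and error bars the SD of 4 animals, and points the animals. Psmb8 stands at 216 CPM per kb on the left and 112 on the right, beside 111 for Psmb5 on both.

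Summed over the 6 catalytic genes, the immunoproteasome genes made up 55.7%, 51.9%, 55.6% and 53.4% of the CPM per kb in animals 1 to 4 (54.1 ± 1.85%, SD, n = 4). With complete transcripts the share was 43.8%, 40.6%, 44.4% and 41.5% (42.6 ± 1.79%). The animals differed little on either scale, but the share lay above an equal split on the first and below it on the second. Set against an equal split, the exact sign-flip permutation test (two-sided) gave p = 0.125 both times, again its smallest value.

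Within a pair the length cancels when animals are compared, so count ratios are free of that choice. The Psmb8 to Psmb5 ratio was 2.37, 1.75, 2.20 and 2.33 in animals 1 to 4. The Psmb9 to Psmb6 ratio was 0.438, 0.372, 0.416 and 0.374. The Psmb10 to Psmb7 ratio was 3.47, 2.99, 3.60 and 3.17. Each of these ratios was lowest in animal 2, though for Psmb9 animal 4 was nearly the same. The highest ratio exceeded the lowest by 1.35-fold, 1.18-fold and 1.20-fold in that order, less than the 1.55-fold, 1.54-fold and 1.69-fold ranges of Psmb8, Psmb9 and Psmb10 themselves.

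The Psmb9 and Psmb7 values carry a limit of the annotation. Psmb9 lies head to head with Tap1, which encodes a chain of the peptide transporter for class I loading, and transcripts of the 2 genes overlap on opposite strands over 212 bases. Psmb7 and Nek6 overlap on opposite strands at their 3′ ends, over 255 bases. Whether counting used the strand is not given, so reads from those stretches cannot be told apart.

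The activators spanned the widest range per kilobase of the role groups, 23.8-fold from Psme4 to Psme1, and 235-fold with complete transcripts. Psme1 and Psme2 (chr14:55578123-55581529 and chr14:55587441-55591113) encode the alpha and beta chains of the interferon-inducible cap PA28. Psme1 had 357, 327, 397 and 301 CPM and Psme2 had 346, 302, 381 and 246 CPM in animals 1 to 4. Psme3, the nuclear PA28 gamma chain, had 23.6, 19.3, 41.8 and 19.9 CPM. Psme4, the PA200 cap, had 10.3, 8.59, 21.4 and 13.4 CPM. Psme3 and Psme4 were both highest in animal 3, and their highest value exceeded the lowest by 2.16-fold and 2.49-fold.

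Per kilobase, Psme1 (486 ± 58.2 CPM per kb, n = 4) was the highest of all 50 members and Psme2 had 401 ± 73.2. Psme3 had 37.5 ± 15.2 CPM per kb. In the within-animal comparison Psme1 was above Psme3 by 3.74 log2 (SE 0.385) and Psme2 by 3.46 log2 (SE 0.385), each in 4 of 4 animals. Of the genes tested, 13.0% were called higher than Psme3 and 72.3% lower. The limma adjusted p was 8.43e-22 for Psme1 and 8.54e-19 for Psme2, but these fits treat the spread between animals as known (infinite prior degrees of freedom), and every difference in them shares the values of Psme3. Without animal 3 the adjusted p was 4.12e-05 and 4.63e-05, and the exact sign-flip permutation test gave 0.125. With complete transcripts Psme3 was lower, at 9.82 CPM per kb, Psme4 was at 2.07, and the log2 differences rose to 5.62 and 5.19. The Psme1 to Psme3 count ratio was 15.1, 16.9, 9.50 and 15.1 in animals 1 to 4, lowest in animal 3. A near-identical gene, Psme2b, matches Psme2 at 99.4% over 794 bases and had a mean of 12.4 CPM, so some Psme2 reads could have been assigned to it.

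The 7 alpha ring genes, whose products form the gate of the core, had a median of 190 CPM per kb. Psma7 was the highest (339 ± 37.6 CPM per kb, n = 4), with 312, 333, 403 and 356 CPM in animals 1 to 4. Psma2 was the lowest (69.5 ± 2.25 CPM per kb), with 146, 155, 146 and 145 CPM. Psma2 was thus nearly level across animals, apart from a slightly higher value in animal 2. The order within the ring was the same at both ends with complete transcripts, where the median was 167 CPM per kb.

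Psma3 shares its sequence with a pseudogene that also received many reads. The processed pseudogene Gm13835 (chr6:31141979-31142663, minus strand) matches a Psma3 transcript at 100% over 685 bases. Psma3 (chr12:70974621-70996347) had 221, 183, 215 and 215 CPM, and Gm13835 had 104, 134, 144 and 92.1 CPM. Their sum was 325, 317, 359 and 307 CPM, of which 32.0%, 42.3%, 40.2% and 30.0% was assigned to the pseudogene. Animal 2, the lowest for Psma3 alone, had the largest share at the pseudogene. The SD of log2 CPM over animals was 0.125 for Psma3 and 0.0986 for the sum. In all, 17 of 50 members had another gene matching at 95% or more over at least 200 bases, and the level of Psma3 itself is uncertain to the extent of this copy.

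**Figure D3:**
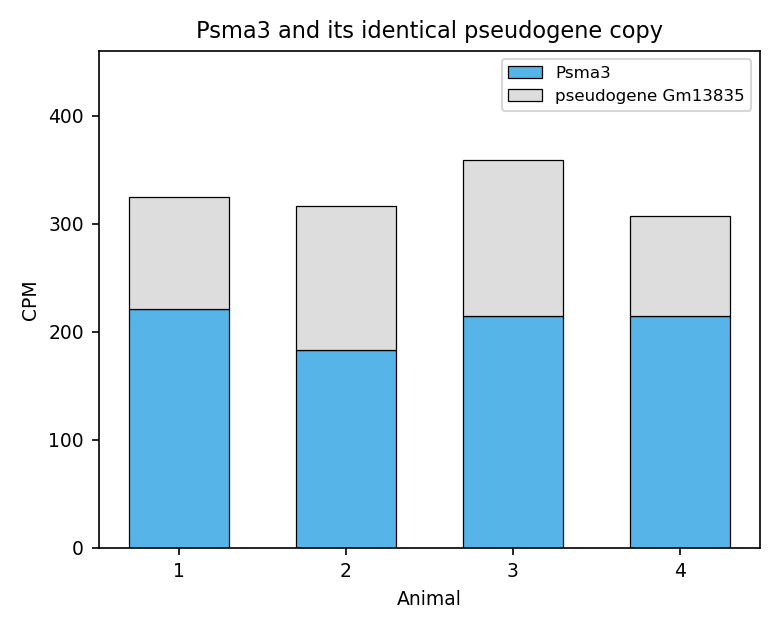
Stacked CPM of Psma3 (blue) and its identical processed pseudogene Gm13835 (grey) in each of the 4 animals. The pseudogene takes 30.0% to 42.3% of the sum, and the dip of Psma3 in animal 2 to 183 CPM is smaller in the sum.

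The 4 non-catalytic beta ring genes had a median of 171 CPM per kb. Psmb2 was the highest at 217 ± 27.3 CPM per kb (n = 4), with 186, 175, 219 and 165 CPM in animals 1 to 4. Psmb4 was the lowest at 49.4 ± 1.75 CPM per kb, with 58.2, 59.5, 60.2 and 55.6 CPM. Psmb4 was among the least variable members. Psmb1 and Psmb3 lay between them at 159 and 184 CPM per kb.

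The 6 ATPases of the 19S base, which unfold the substrate, spanned only 2.52-fold per kilobase, with a median of 115 CPM per kb. Psmc1 was the highest at 130 ± 18.8 CPM per kb (n = 4), with 208, 249, 191 and 181 CPM in animals 1 to 4. Psmc6 was the lowest at 51.7 ± 3.85 CPM per kb, with 116, 121, 103 and 122 CPM. All 6 ATPase genes were above their own 4-animal mean in animal 2, where none of the 3 immunoproteasome genes was; the difference between the groups was not tested. Of the 8792 genes at 10 CPM or more, 4563 were above their own mean in animal 2, which also had the highest sum of fibroblast markers (22298 CPM, against 15027, 19678 and 14793 in animals 1, 3 and 4). Most of that sum was Dcn, with 15498 CPM in animal 2. Dcn, Col3a1, Pdgfra, Lum and Dpt were highest in animal 2, Col1a1, Col1a2 and Pi16 in animal 3, and Thy1 in animal 4. The part of fibroblasts, or of the general shift in animal 2, was not tested.

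The 12 other cap genes, which include the ubiquitin receptors Psmd4 and Adrm1 and the deubiquitinase Psmd14, had a median of 78.6 CPM per kb. Psmd2, a large scaffold subunit of the base, ranked highest at 255 ± 54.3 CPM per kb (n = 4), with 145, 221, 146 and 162 CPM in animals 1 to 4. That rank came from its short median transcript of 659 bases; with the complete length of 2961 bases it had 56.9 CPM per kb, and Psmd8 was then the highest at 105. Psmd3 was the lowest at 20.8 ± 6.19 CPM per kb, with 28.7, 29.9, 39.8 and 18.5 CPM. Psmd4 had 90.7 ± 6.84 CPM per kb, Adrm1 59.6 ± 7.25 and Psmd14 62.1 ± 8.41. Psmd13 shares 329 bases with Sirt3 on the opposite strand, so its 80.7 ± 14.0 CPM carries the same limit as Psmb9. Across all members, complete lengths were more than 1.5 times the median length for 11 of 50 and identical for 32.

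The 9 assembly and regulatory genes had a median of 36.2 CPM per kb, the lowest of the role groups apart from the tissue-restricted subunits. Pomp, the maturation factor of the core and of the immunoproteasome, stood out at 108 ± 5.71 CPM per kb (n = 4), with 160, 175, 180 and 165 CPM in animals 1 to 4. Psmg1, a chaperone of the alpha ring, was the lowest at 11.4 ± 3.39 CPM per kb, with 14.2, 10.3, 11.1 and 6.61 CPM. Its partner chaperone Psmg2 was at 36.2 ± 8.01 CPM per kb. Psmf1, an inhibitor of the core, had 23.7 ± 1.76 CPM per kb. With complete transcripts Psmd9, a chaperone of the base, was the lowest at 10.7 CPM per kb.

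The members varied little between the animals. The SD of log2 CPM over the 4 animals had a median of 0.196 among the 48 members of at least 10 CPM, from 0.036 to 0.551. For the 8792 genes of the table at that level the median was 0.327, a difference that was not tested. Beyond the 10 CPM limit those genes were not matched to the members in level. The steadiest members were the cap subunit Psmd7 (145, 145, 153 and 148 CPM), Psma2 and Psmb4. The most variable were Psme4, Psme3 and the cap scaffold Psmd1 (78.3, 122, 142 and 70.9 CPM). Psmd1 was higher in animals 2 and 3 than in animals 1 and 4, an order unlike that of the immunoproteasome genes.

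The role groups did not all order the animals alike. For the 3 immunoproteasome genes the median deviation from each gene's own mean, on log2(CPM + 0.5), was 0.12, -0.29, 0.34 and -0.26 in animals 1 to 4. Animals 1 and 3 were also above animals 2 and 4 in the medians of the constitutive catalytic genes (0.03, -0.07, 0.31 and -0.27), the activators (-0.01, -0.21, 0.51 and -0.25) and the non-catalytic beta genes (0.0018, -0.04, 0.13 and -0.12). The assembly and regulatory genes (0.12, 0.0097, 0.097 and -0.03) and all 48 members together (0.0078, 0.0012, 0.15 and -0.12) had that order too. The 19S non-ATPase genes did not, with -0.05, 0.0097, 0.18 and -0.08. These medians are by column totals, and those of the assembly and 19S non-ATPase groups changed order with the scaling given below. For the 19S ATPases the median was 0.03, 0.19, -0.04 and -0.15, and for the alpha ring -0.03, 0.07, 0.05 and -0.02. Animals 1 and 3 were above animals 2 and 4 in Psmb6, Psmb7, Psmb8, Psmb9, Psmb10, Psme1 and Psme2, and in 17 of 48 members in all (35.4%). The same order held in 15.4% of the 8792 genes at 10 CPM or more. It was kept by those 7 genes when the libraries were scaled by TMM or by DESeq2 size factors, and Psmb5 then showed it too. The order was singled out after the values were seen, and the immunoproteasome genes that show it are among the 17. The 2 shares therefore describe the data and are not a test. They were not recomputed with TMM.

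A part of the height of animal 3 depended on the scaling. By column totals 30 of 48 members (62.5%) were highest in animal 3, against 32.3% of the 8792 genes at 10 CPM or more. With TMM 18 of 48 (37.5%) were, against 23.8% of those 8792 genes. The TMM factor was 1.064 for animal 3 and 0.962 for animal 1. For the immunoproteasome genes the median deviation with TMM was 0.17, -0.30, 0.25 and -0.22, so both scalings put animals 1 and 3 higher. With TMM the assembly and regulatory genes no longer had animals 1 and 3 above animals 2 and 4 (0.18, -0.0008, 0.0083 and 0.015). The 19S non-ATPase genes then did (0.0072, -0.0013, 0.095 and -0.035).

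**Figure D4:**
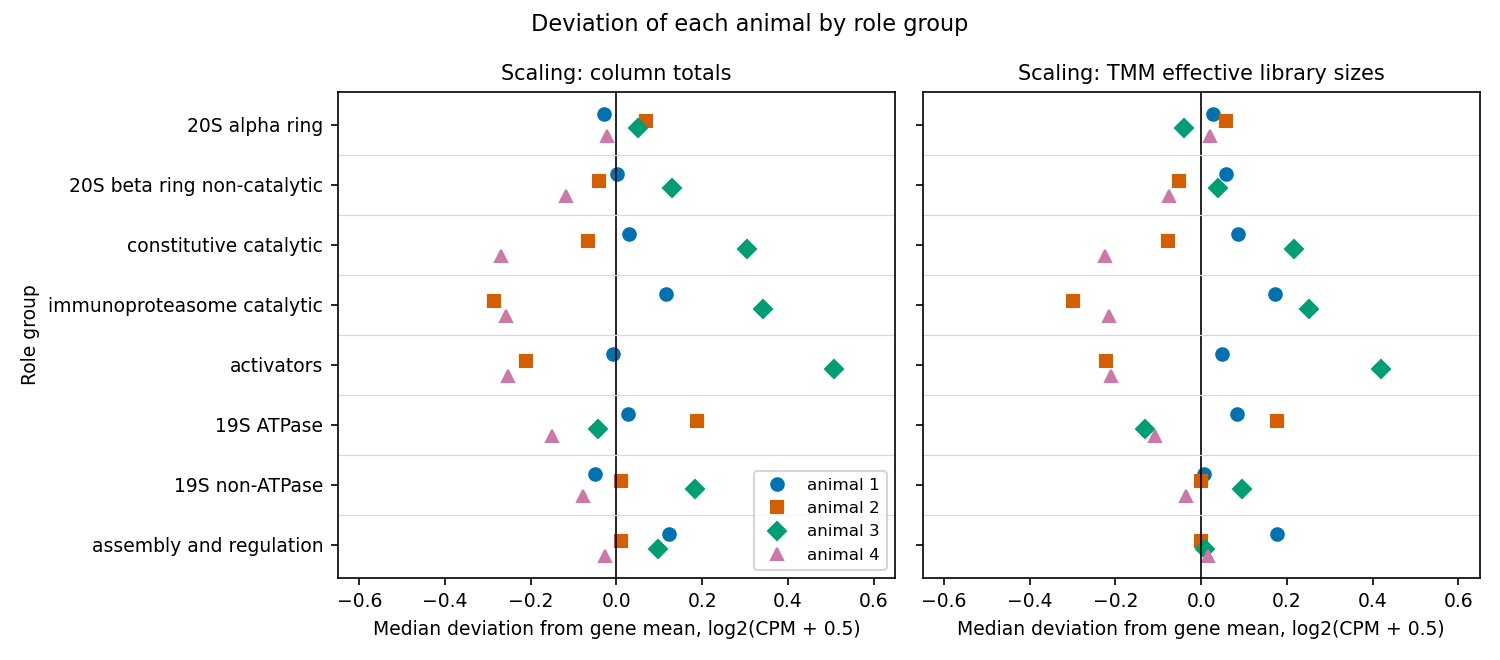
Median deviation of each role group from its genes' 4-animal means (horizontal axis: log2(CPM + 0.5) difference; rows: role groups; points: animals), with column totals (left) and TMM library sizes (right). The immunoproteasome row spreads from -0.29 to 0.34 on the left and from -0.30 to 0.25 on the right, while the alpha ring row stays within 0.07 of 0 on both sides.

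Promoter sequence was examined because the constitutive and the interferon-inducible members are known to be controlled by different factors. RefSeq start-site windows (GRCm38.p6, 250 bases before to 50 after the start) were matched for 42 of 50 members. Psmb7 was among the members without a window, so it was not searched. The letters searched, on both strands, were a pair of GAAA with either 2 or 3 bases between them (cores of the interferon-stimulated response element), TTCNNNGAA (the gamma-activated site), TGACNNNGC (the antioxidant response element bound by Nfe2l1 and Nfe2l2) and CCAAT (the NF-Y box). Psmb5 and Psmb6 hold the antioxidant element, Psmb8 an interferon element and a gamma-activated site, and Psme1 an interferon element just after the start. The stretches are shown 5′ to 3′ on the gene's strand with matches in capitals; where GENCODE annotates the site inside a 5′ untranslated exon, only the site and its flanks are shown. They lie at chr14:54618023-54618245 (minus strand), chr11:70525107-70525356 (plus), chr17:34197945-34197974 (plus), chr17:34198088-34198117 (plus) and chr14:55578493-55578522 (plus), in the order printed.
Psmb5: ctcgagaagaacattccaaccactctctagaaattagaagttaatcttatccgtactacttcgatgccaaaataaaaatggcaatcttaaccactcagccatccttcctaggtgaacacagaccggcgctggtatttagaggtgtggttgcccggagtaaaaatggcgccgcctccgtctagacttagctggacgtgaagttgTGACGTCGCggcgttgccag
Psmb6: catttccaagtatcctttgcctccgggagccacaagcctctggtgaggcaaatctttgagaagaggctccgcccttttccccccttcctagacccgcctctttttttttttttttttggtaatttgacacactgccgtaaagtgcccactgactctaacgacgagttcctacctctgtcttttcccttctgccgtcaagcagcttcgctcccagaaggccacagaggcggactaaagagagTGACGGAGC
Psmb8 interferon element: atTTTCCAGTTTCtataaaatgatgctcat
Psmb8 gamma-activated site: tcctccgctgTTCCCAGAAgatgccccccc
Psme1 interferon element: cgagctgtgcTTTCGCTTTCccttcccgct

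These short matches were also common elsewhere. TGACNNNGC was in 7 of 42 members (16.7%) and in 14.0% of 27025 genes, the GAAA pair with 2 bases between in 5 of 42 (11.9%) and 3.99%, and that with 3 in 2 of 42 (4.76%) and 3.17%. TTCNNNGAA was in 3 of 42 (7.14%) and 9.55%, and CCAAT in 15 of 42 (35.7%) and 41.1%. The members with the first GAAA pair were Psmb3, Psmd4, Psmd9, Psme1 and Psmg4, so most were not interferon-inducible subunits. Psmb10 and Psme2 held none of the 5 in their windows, and Psmb9 held only CCAAT. The Psmb9 window shares 275 bases with that of Tap1, which runs the other way. A match says only that the letters are present, and the stretches shown were chosen after the matches were seen.

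The pathways around the proteasome were also expressed; the ends of each list are by CPM, without regard to length. All 9 genes of the list for proteasome transcription and recovery passed 10 CPM, from Syvn1 (21.5 CPM) to Nfe2l2 (275 CPM). Nfe2l1, the factor that restores proteasome genes when the proteasome is inhibited, had 127, 89.8, 109 and 85.8 CPM in animals 1 to 4. All 19 genes found of the list for ubiquitin supply and proteasome-associated factors passed 1 CPM and 17 passed 10 CPM, from Akirin2, an importer of proteasomes into the nucleus (6.49 CPM), to the polyubiquitin gene Ubb (8892 CPM).

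Class I presentation genes passed 1 CPM in 11 of 11 and 10 CPM in 10 of 11 cases, with H2-D1 the highest (6562 CPM) and the class I transactivator Nlrc5 the lowest (13.7 CPM). Nlrc5 had 15.5, 8.44, 18.9 and 12.0 CPM and Tap1, which shares bases with Psmb9, had 113, 43.9, 122 and 81.9 CPM in animals 1 to 4. Animals 1 and 3 were above animals 2 and 4 in 4 of the 11 genes by column totals (Tap1, Tap2, H2-K1 and Nlrc5). The other 7 did not have that order, among them the class I light chain B2m with 4973, 2107, 3535 and 4181 CPM. The share was thus 36.4%, against 15.4% of the 8792 genes at 10 CPM or more. Tap2 (97.3 CPM in animal 3, 96.7 in animal 4) and H2-K1 (2726 in animal 3, 2680 in animal 2) had the order narrowly. Neither kept it with the TMM factors (1.064 for animal 3, 1.008 for animal 2, 0.970 for animal 4). Of 21 interferon genes, which include the 3 immunoproteasome genes, 19 passed 10 CPM, with Gbp2 the highest (630 CPM). Ifng and Ifnb1 were at 0 in every library. The interferon-activated factor Irf1 had 204, 264, 254 and 107 CPM, highest in animal 2. Outside the proteasome there were 16 interferon genes at 10 CPM or more, a level where 15.4% of genes had animals 1 and 3 above animals 2 and 4. By column totals 6 of these 16 (37.5%) had that order. These were Irf9, Ifit1, Ifit3, Isg15, Usp18 and Gbp2, for example Isg15 with 59.2, 37.8, 120 and 33.6 CPM. The order was not particular to the class I and interferon lists. At 10 CPM or more it held in 3 of 9 genes (33.3%) for proteasome transcription and recovery, namely Nfe2l1, Nfe2l2 and Syvn1. In the list for ubiquitin supply and proteasome-associated factors it held in 5 of 18 (27.8%), and in the mesothelial markers in 0 of 13.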

How the data were processed

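RNA of sorted mesothelial cells was measured in 4 animals (1 group). The authors deposited estimated counts per gene; per the submitters' processing notes kallisto 0.43.1, edgeR 3.24.3, limma 3.38.3 and GRCm38.p5 were used, with no role given. The step from transcripts to genes and the strand setting are not given in the sources used here. CPM are counts over column totals. For the level test, counts were rounded and fitted in edgeR 4.0.16 (R 4.3.3) with an intercept only; the statistic was tested on simulated data. Pairs were tested with limma 3.58.1 on genes with at least 10 counts and a known length. Lengths came from GENCODE vM21 (98.07% of genes). DESeq2 1.42.0 and voom were alternatives, as were other lengths, pseudocounts (0.1 and 2), scalings and leaving out each animal; the threshold was 0.05. Copies were found with blastn 2.17.0. All p-values rest on these 4 animals. Those of edgeR and limma use a spread shared over genes, and in each limma fit every difference shares the partner's values. The sign-flip p-values use only the animals' own differences. Floors cover counting error only.

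Members and lists were chosen with earlier results of these data known. Genes given with values in each animal were the catalytic genes, Psma8, Psmb11, the activators, the highest and lowest of each role group per kilobase, the 3 most and 3 least variable, and, of other pathways, the ends of each list and Nfe2l1, Nlrc5, Irf1 and Tap1; 1 further gene of that rule is not reported here. The copies and overlapping genes were named because of their sequence match. The values of Psmb1, Psmb3, Psmd4, Psmd8, Psmd13, Psmd14, Adrm1, Psmg2, Psmd9 and Psmf1 and the marker genes outside those ends were added after they were seen.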

Additional observations from a re-analysis of the deposited data

Results flagged for a closer look

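Each member that varied, each role group's sum and each count ratio of the catalytic and activator pairs was checked for an animal far from the other 3, by Dixon's 95% criterion. Of 63 sets of 4 values, 3 were marked; chance marks about 1 in 20. Psma2 had 155.3 CPM in animal 2, above 145.5 to 145.9 CPM in the others, a small difference in a very steady gene. Psma3 had 182.6 CPM in animal 2, below 214.6 to 220.9 CPM in the others. The summed level of the alpha ring was 1576 CPM in animal 3, above 1414 to 1439 CPM in the others. All 3 flags are by column totals and were not recomputed with other scalings. With TMM the median deviation of the alpha ring genes was 0.03, 0.06, -0.04 and 0.02 in animals 1 to 4, so animal 3 was not the highest. The level of Psma3 is also uncertain because of its copy Gm13835.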

How the results depend on the processing

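The counts of members above 1 CPM (48) and above 10 CPM (46) were the same under TMM, DESeq2 size factors, limma with voom, DESeq2's test, the count filter and without each animal; the whole table gave 11494 to 12204 and 6616 to 7518 genes. The pair results turned on transcript length. Psmb8 minus Psmb5 was 0.018 with the longest transcript and 0.0045 with complete transcripts (a length chosen after seeing the data), neither called; it was 1.90 with the shortest. The summed immunoproteasome share was 44.7% with the longest and 42.6% with complete transcripts, against 54.1% as reported and 63.4% with the shortest. Under the exact sign-flip permutation test, which cannot go below 0.125 with 4 animals, the differences of 0.96, -0.73, 1.54, 3.74 and 3.46 log2 were not called. Leaving out each animal gave 0.91 to 1.05 for Psmb8 minus Psmb5, -0.78 to -0.70 for Psmb9 minus Psmb6, 1.497 to 1.586 for Psmb10 minus Psmb7, 3.65 to 3.92 and 3.36 to 3.61 for Psme1 and Psme2 minus Psme3, and a share of 53.6% to 54.9%. The mean levels of 59 genes and groups moved by less than 1 SD in each of 118 values recomputed with TMM or DESeq2 scaling.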
